A study of Homo sapiens with 2 samples.

Results

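The genes that encode the chains of the collagens were compared between 2 RNA libraries of MDA-MB-231, an established human line from a triple-negative breast carcinoma. The members were all genes whose symbol consists of COL, a type number, the letter A and a chain number, and whose listed transcript types include protein-coding. Of 60612 genes listed, 44 met this rule. The control library came from cells kept in ordinary RPMI-1640 medium with fetal bovine serum, and the other from cells of the same line given 24 µM D16, a compound that the labels call a chalcone, for 48 h. No vehicle for the control is named in the labels, the cells were grown without stromal cells as far as the labels say, and total RNA was read in paired ends. The deposited estimated counts sum to 72108404 and 73303902, at about 4 counts to a read pair. Each group held 1 library, so no difference below has a replicate check and no p-value was computed. Each 95% interval covers counting error only, and "lower" and "higher" describe these 2 libraries.

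Collagens are extracellular proteins whose 3 chains wind into a triple helix. Fibrillar collagens (types I, II, III, V, XI, XXIV and XXVII) assemble into the fibrils of connective tissue, with type V controlling how type I fibrils start and how thick they become. Type IV forms the sheet-like network of basement membranes, which carcinoma cells cross when they invade, and type VI forms beaded microfilaments that lie between basement membrane and stroma. Other types sit on fibril surfaces, span the plasma membrane or anchor epithelia. In breast tumours fibroblasts make most of the fibrillar collagen, while carcinoma cells contribute basement membrane and membrane-bound types.

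Of the 44 chains, 14 had a mean of 1 FPKM or more over the 2 libraries, 6 lay between 0.1 and 1 FPKM, and 24 lay below 0.1 FPKM. FPKM counts sequenced fragments scaled to transcript length and library size. The leading chain differed, with COL13A1, a membrane-spanning collagen, first in the control library at 24.9 FPKM, and COL6A1, of type VI, first in the D16 library at 10.2 FPKM. Chains at or near 0 were found in every class. Among the fibrillar chains, COL2A1, the main collagen of cartilage, was listed at 0 in both libraries. Its partners in cartilage fibrils, COL11A1 and COL11A2, and the rarer chains COL5A3 and COL24A1 reached at most 0.0707 FPKM and 10 read pairs. The type IV chains COL4A3, COL4A4 and COL4A6, which occur in kidney, lung and some epithelial basement membranes, reached at most 0.109 FPKM and 22 read pairs. COL6A5 and COL6A6, which can take the place of COL6A3 in type VI, were listed at 0 in both libraries.

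Of the other types, 14 chains lay below 0.1 FPKM. COL10A1 of growth plate cartilage and the membrane-spanning chains COL23A1 and COL25A1 were listed at 0 in both libraries. COL9A1 and COL19A1 were at 0 in the D16 library with 1 read pair each in the control, and COL22A1 and COL26A1 were at 0 in the control library with 1 read pair each under D16. The remaining 7 of these 14 chains, COL8A2, COL9A3, COL14A1, COL15A1, COL20A1, COL21A1 and COL28A1, reached at most 0.0832 FPKM and 10 read pairs. A count of 0 allows up to 3 read pairs in a library. The 6 chains of all classes listed at 0 in both libraries were thus not detectable at this depth. No fold is given for a chain at 0 in either library.

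**Figure D1:**
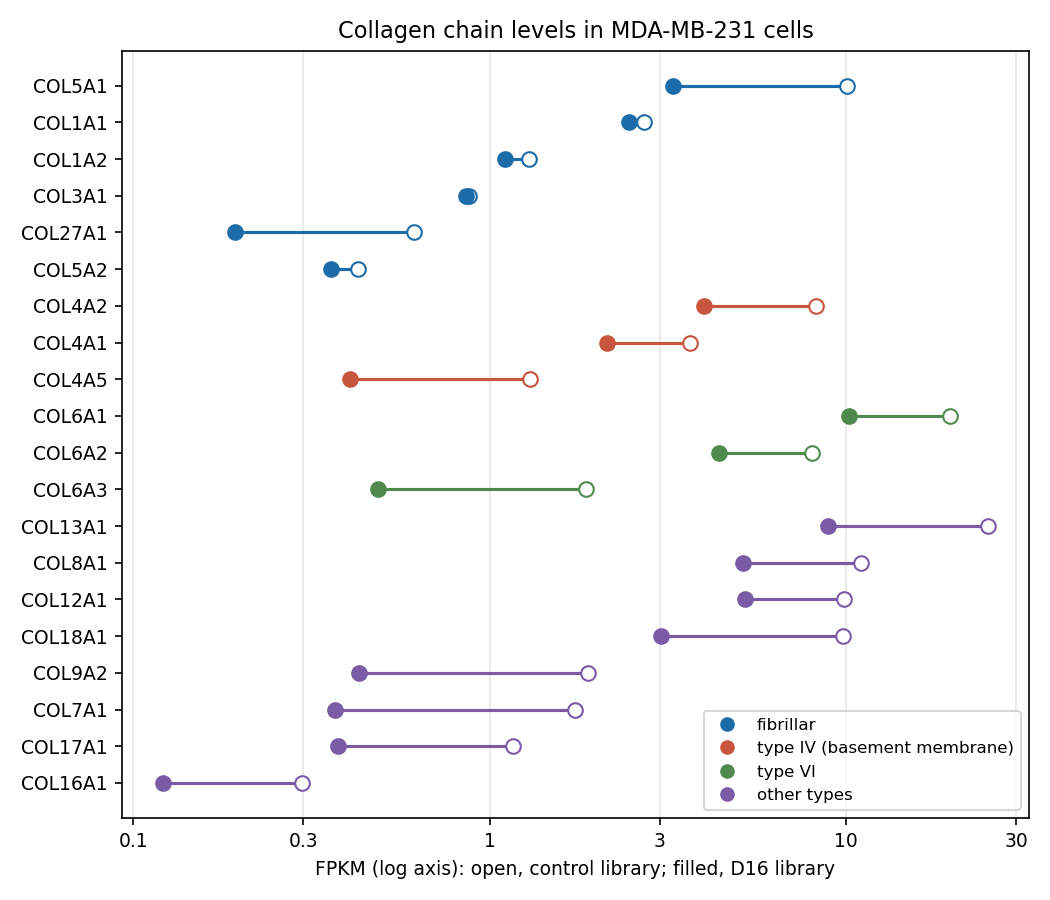
FPKM of the 20 collagen chains with a mean of 0.1 FPKM or more in the control library (open) and the D16 library (filled), on a log axis and coloured by class. Every filled point lies left of its open point as deposited, the closest pair being COL3A1 at 0.872 and 0.857 FPKM; after rescaling to equal sums of FPKM, COL1A1 and COL3A1 lie to the right.

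Collagen messages were lower in the D16 library. All 14 chains with a mean of 1 FPKM or more lay below 0 on the log2((D16 FPKM + 1) / (control FPKM + 1)) scale, except that COL1A1 stood at 0.03 when both libraries were rescaled to the same sum of FPKM. Of all 11830 genes with a mean of 1 FPKM or more, 43.1% lay below 0. The median log2 difference of the 14 chains was -0.92, beside 0.08 for all genes tested. On this scale 5 of the 14 were at least 2-fold lower (COL18A1, COL13A1, COL5A1, COL9A2 and COL7A1), beside 3.97% of all genes tested, and none was at least 2-fold higher, beside 3.63%. COL7A1, at -1.0, lay on the threshold and COL8A1, at -0.97, just inside it. Rescaling to the same sum of FPKM left 3 of the 5, COL18A1, COL13A1 and COL5A1, beside 2.89% of all genes.

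**Figure D2:**
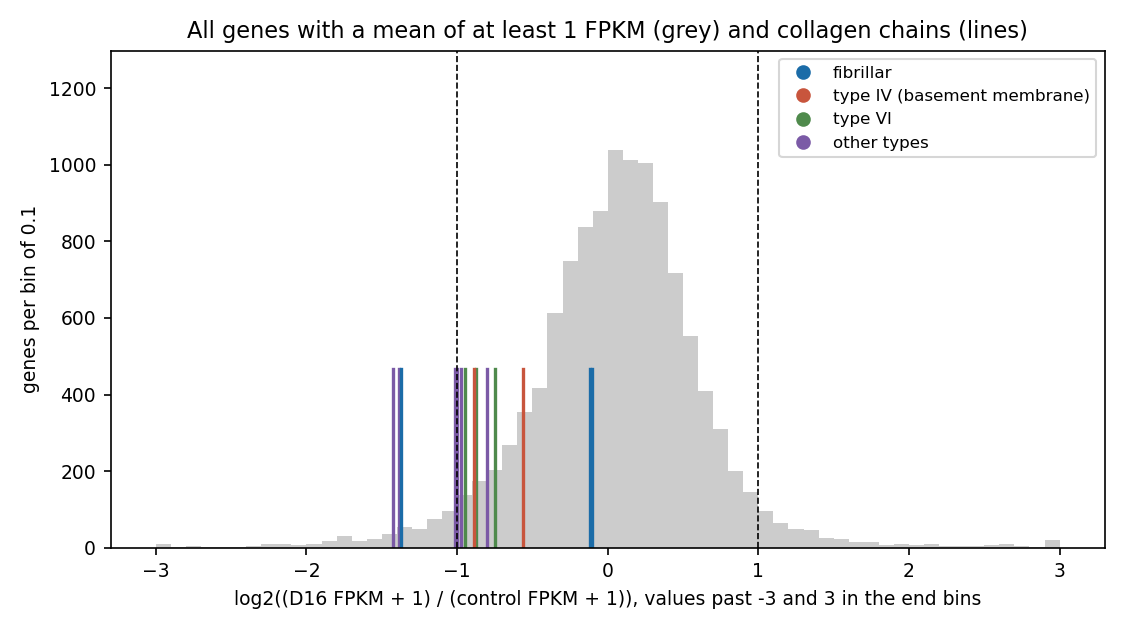
Number of genes per bin of 0.1 on the log2((D16 FPKM + 1) / (control FPKM + 1)) scale for the 11830 genes with a mean of 1 FPKM or more (grey), with the 14 collagen chains as lines coloured by class and 2-fold marked by dashed lines. The chains lie between -1.42 and -0.10; COL1A1, at -0.10, moves to 0.03 after rescaling to equal sums of FPKM.

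The pseudocount of 1 FPKM shrinks the differences of weak chains, so folds below are ratios of FPKM. By that ratio 12 of the 20 chains with a mean of 0.1 FPKM or more were at least 2-fold lower, beside 15.6% of 19071 genes at this level, and none was at least 2-fold higher, beside 10.5%. The 20 chains fell into a group of 4 that were at most 1.19-fold lower (COL1A1, COL1A2, COL3A1 and COL5A2) and 16 that were 1.70-fold to 4.72-fold lower. This division was made after the values were seen. Summed over all 44 chains, collagen stood at 119.7 FPKM in the control library against 53.7 FPKM with D16, 44.9% of control. In RNA from whole cultures, fewer cells that make a message and less of it per cell cannot be told apart.

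Scaling moved the position of 0. Without rescaling, 47.8% of all genes beyond 2-fold were the higher ones under D16. That share was 66.5% after rescaling to equal sums, which put the median of all genes at 0.23, and 31.0% after centring on the median of well-expressed genes (5 FPKM or more on average), which put it at -0.07. It was 37.1% after centring within 5 bins of transcript length. The collagen median was -0.77, -1.06 and -0.97 under these 3 scalings, below that of all genes in each.

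**Figure D3:**
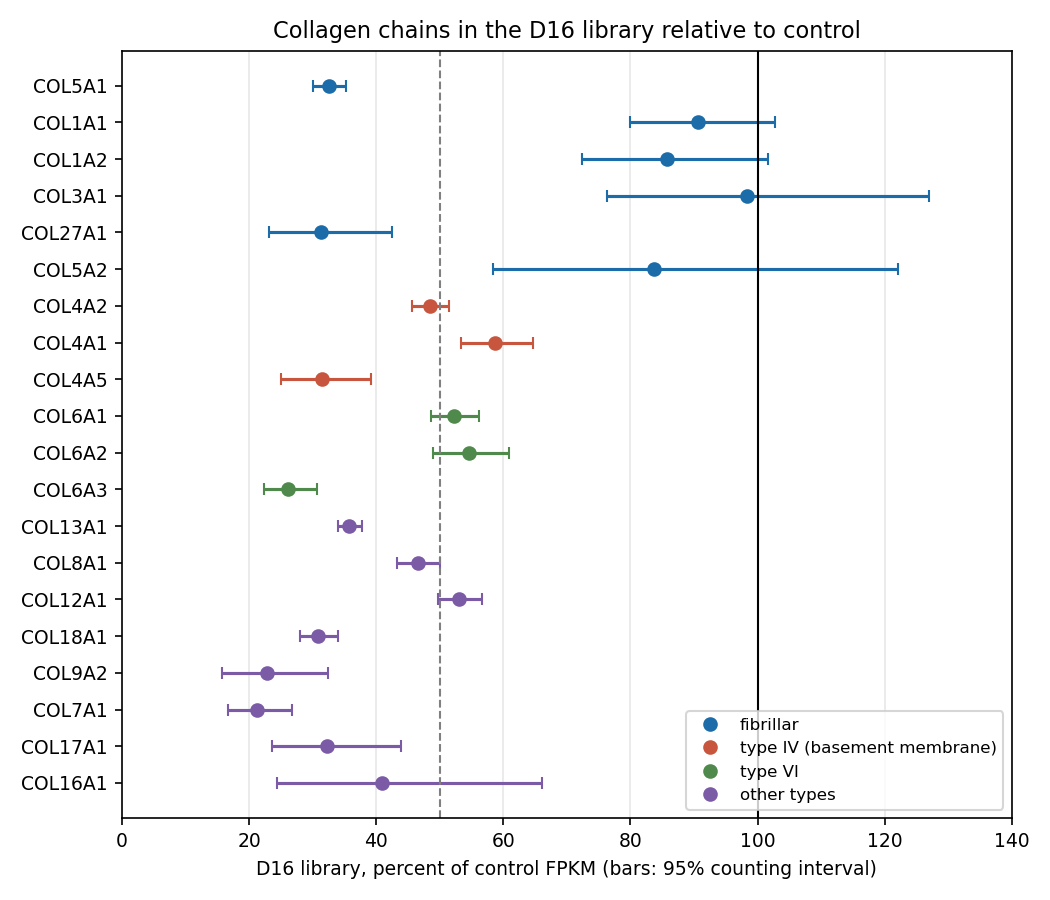
Level in the D16 library as a percentage of the control FPKM for the 20 chains with a mean of 0.1 FPKM or more, with 95% counting intervals; the solid line marks 100% and the dashed line 50%. The intervals of COL1A1, COL1A2, COL3A1 and COL5A2 reach 100%, and those of the other 16 chains lie wholly below it.

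The fibrillar chains divided. COL5A1, the main chain of type V, stood at 10.1 FPKM in the control library against 3.27 FPKM with D16, 3.08-fold lower with a 95% interval of 2.84 to 3.33. COL27A1, a fibrillar chain of developing cartilage, stood at 0.614 and 0.192 FPKM, 3.19-fold lower (2.36 to 4.32). Both intervals lie well away from no difference. COL1A1, the main chain of type I, stood at 2.72 and 2.46 FPKM, a D16 to control ratio of 0.906 with an interval of 0.799 to 1.03. Its partner COL1A2 stood at 1.29 and 1.10 FPKM, 1.17-fold lower (0.984 to 1.38). COL3A1, of elastic tissues such as skin and vessel walls, stood at 0.872 and 0.857 FPKM, 1.02-fold lower (0.787 to 1.31), on 125 and 128 read pairs. COL5A2, the partner of COL5A1, stood at 0.427 and 0.358 FPKM, 1.19-fold lower (0.819 to 1.71). These 4 intervals all contain 1, and after rescaling to equal sums COL1A1 stood at 103% and COL3A1 at 112% of control. When the sums omitted mitochondrial genes and the 20 genes of highest level, COL1A1 stood at 86.4% and COL3A1 at 93.8% of control. Over the 3 fibrillar chains with a mean of 1 FPKM or more the median log2 difference was -0.12, set by COL1A2. The fibrillar class summed to 16.1 and 8.33 FPKM, 51.8% of control, a sum in which COL5A1 weighs most.

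Fibroblast markers, which usually accompany type I and type III messages, were low in both libraries. Of 10 such markers 1, the smooth muscle actin ACTA2, reached a mean of 1 FPKM, at 1.68 and 0.663 FPKM, and the 10 together summed to 4.5 and 2.47 FPKM. PDGFRB, a growth factor receptor of fibroblasts and pericytes, stood at 1.02 and 0.301 FPKM. The other markers above 0 were FBLN1 at 0.393 and 0.237 FPKM, POSTN at 0.673 and 0.562, DCN at 0.227 and 0.229, THY1 at 0.200 and 0.162, LUM at 0.172 and 0.128, PDGFRA at 0.0948 and 0.0890, and FAP at 0.0426 and 0.0965. DPT was listed at 0 in both libraries. The list thus held markers with lower, like and higher levels under D16, on unequal numbers of reads. FAP, the higher one, rested on only 7 read pairs in the control and 15 in the D16 library. ACTA2 had 106 and 44 read pairs and PDGFRB 154 and 48. Endothelial markers summed to 1.55 and 0.798 FPKM over 6 genes and blood cell markers to 0.482 and 0.229 FPKM over 6 genes, with CD3E and HBB among those at 0. None of these 12 reached a mean of 1 FPKM, the highest being KDR at 1.05 and 0.708 FPKM, with PECAM1 at 0.446 and 0.0591 FPKM. Their part in the collagen differences was not tested.

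All 6 type IV chains had lower FPKM in the D16 library, 1 of them on too few reads to give a direction. COL4A1 and COL4A2, which form the common basement membrane trimer, stood at 3.64 and 2.13 FPKM (1.70-fold lower, 95% bounds 1.55 and 1.87) and at 8.22 and 3.98 FPKM (2.07-fold lower, 1.95 to 2.19). The difference of COL4A2 was thus the larger, with intervals that do not meet, although the gene bodies overlap, as described below. COL4A5, which pairs with COL4A6 or with COL4A3 and COL4A4 in specialised basement membranes, stood at 1.29 and 0.406 FPKM, 3.18-fold lower (2.55 to 4.01). COL4A6 stood at 0.109 and 0.0265 FPKM, on 22 and 6 read pairs, 4.13-fold lower (1.5 to 11.5). COL4A4 had 14 and 4 read pairs (1.14 to 15.2), and COL4A3 had 4 and 1 (0.412 to 205). The summed level of the class was 13.3 and 6.57 FPKM, 49.2% of control.

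The type IV genes lie in head-to-head pairs, so that neighbours share their promoter. In the coordinates of the deposited table, for which the sources used here name no genome build, COL4A1 spans chr13:110148963-110307157 on the minus strand and COL4A2 chr13:110305812-110513209 on the plus strand. The gene bodies overlap on opposite strands, and whether reads were counted by strand is not given, so reads from the overlap cannot be assigned to 1 gene. RefSeq (GRCh38.p14) promoter windows, 250 bases before to 50 after each start, were found for 32 of the 44 chains. They are shown for the pairs in which both genes had reads in both libraries and at least 1 had a mean of 0.1 FPKM or more. The windows of these neighbours are in part the same DNA read from opposite strands. All 20 chains with a mean of 0.1 FPKM or more were lower as deposited, so being lower together is not particular to these pairs. A part of the shared DNA in the differences was not tested. COL4A6 has a further window, not printed. Capitals mark the bases that both windows of a pair hold.
COL4A1, chr13:110307108-110307407, minus strand: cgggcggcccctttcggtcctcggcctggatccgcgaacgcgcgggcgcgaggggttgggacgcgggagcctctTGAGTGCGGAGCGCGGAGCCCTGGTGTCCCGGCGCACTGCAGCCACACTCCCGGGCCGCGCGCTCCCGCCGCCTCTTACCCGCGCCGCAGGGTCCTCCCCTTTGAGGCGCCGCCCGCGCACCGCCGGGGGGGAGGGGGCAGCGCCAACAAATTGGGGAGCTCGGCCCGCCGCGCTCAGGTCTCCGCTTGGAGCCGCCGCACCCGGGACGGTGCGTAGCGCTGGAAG
COL4A2, chr13:110307034-110307333, plus strand: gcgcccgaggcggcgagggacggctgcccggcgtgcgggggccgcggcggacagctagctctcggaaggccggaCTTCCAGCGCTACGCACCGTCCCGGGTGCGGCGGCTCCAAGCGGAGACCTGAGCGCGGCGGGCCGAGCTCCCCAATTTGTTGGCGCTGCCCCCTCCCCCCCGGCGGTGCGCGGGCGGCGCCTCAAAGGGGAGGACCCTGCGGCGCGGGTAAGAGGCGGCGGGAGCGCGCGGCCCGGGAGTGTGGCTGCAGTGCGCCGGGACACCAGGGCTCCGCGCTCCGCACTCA
COL4A5, chrX:108439588-108439887, plus strand: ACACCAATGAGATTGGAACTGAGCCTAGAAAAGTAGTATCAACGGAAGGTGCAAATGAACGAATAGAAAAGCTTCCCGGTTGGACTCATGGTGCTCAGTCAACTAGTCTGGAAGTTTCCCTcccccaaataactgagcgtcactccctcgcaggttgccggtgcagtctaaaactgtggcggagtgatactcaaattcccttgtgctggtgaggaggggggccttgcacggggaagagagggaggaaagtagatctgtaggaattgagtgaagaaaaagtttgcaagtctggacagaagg
COL4A6, chrX:108439409-108439708, minus strand: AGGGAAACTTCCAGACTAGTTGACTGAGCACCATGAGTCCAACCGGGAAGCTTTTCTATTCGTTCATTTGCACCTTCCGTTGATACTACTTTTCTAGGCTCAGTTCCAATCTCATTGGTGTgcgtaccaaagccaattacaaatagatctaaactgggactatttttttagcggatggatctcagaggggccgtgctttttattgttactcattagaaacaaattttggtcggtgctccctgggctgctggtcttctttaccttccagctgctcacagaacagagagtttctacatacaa

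The COL4A1 and COL4A2 windows share 226 bases, with start sites 127 bases apart, and the COL4A5 and COL4A6 windows share 121 bases, with start sites 380 bases apart. The COL4A3 and COL4A4 windows share 82 bases. The shared stretch of COL4A1 and COL4A2 holds 1 CCAAT box (letters CCAAT, either strand) and 1 GC box (GGGCGG, either strand), and that of COL4A5 and COL4A6 holds 2 CCAAT boxes and no GC box. Neither pair's printed windows hold the TATA box letters TATAAA. Such letter matches describe the windows and are not evidence of binding.

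Type VI chains were lower too, COL6A3 most. COL6A1, which lies at chr21:45981769-46005050 near COL6A2 at chr21:46098112-46132848, stood at 19.5 and 10.2 FPKM, 1.91-fold lower with a 95% interval of 1.78 to 2.05. COL6A2 stood at 8.04 and 4.38 FPKM, 1.83-fold lower (1.64 to 2.05). These neighbours differed alike within counting error. COL6A3, the longest of these 3 chains, encoded at chr2:237324003-237414207, whose cleaved end is the signalling peptide endotrophin, stood at 1.86 and 0.485 FPKM, 3.83-fold lower (3.27 to 4.46). Its interval does not meet those of its partners. The class summed to 29.4 and 15.1 FPKM, 51.2% of control.

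Among the other types, the 8 chains with a mean of 0.1 FPKM or more were all lower, and the class summed to 60.9 and 23.8 FPKM, 39.0% of control. The membrane-spanning COL13A1, which sits at cell contacts with the matrix, stood at 24.9 and 8.91 FPKM, 2.80-fold lower with a 95% interval of 2.65 to 2.95. COL17A1, the hemidesmosome collagen that ties epithelial cells to the basement membrane, stood at 1.16 and 0.375 FPKM, 3.09-fold lower (2.28 to 4.23). COL7A1, the anchoring fibril beneath that membrane, stood at 1.74 and 0.368 FPKM and showed the largest fold of the 20 chains, 4.72 (3.73 to 5.98). COL18A1, a basement membrane proteoglycan whose cleaved end is the angiogenesis inhibitor endostatin, stood at 9.81 and 3.03 FPKM, 3.24-fold lower (2.94 to 3.56). None of these 4 intervals reaches below 2.28-fold.

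The fibril-associated chains and the network-forming COL8A1 completed the group. COL12A1, which bridges fibrils, stood at 9.82 and 5.21 FPKM, 1.88-fold lower with a 95% interval of 1.77 to 2.01. COL9A2, a type IX chain best known from cartilage, stood at 1.88 and 0.429 FPKM, 4.39-fold lower (3.08 to 6.33). Its usual partners were nearly missing, COL9A1 with 1 and 0 read pairs and COL9A3 at 0.0595 and 0.0288 FPKM. COL16A1 stood at 0.297 and 0.121 FPKM, 2.45-fold lower (1.51 to 4.09). COL8A1, a short-chain collagen of vessel walls and the cornea, stood at 11 and 5.13 FPKM, 2.15-fold lower (2.00 to 2.31). In the authors' deposited table of Gene Ontology terms 5 chains carry a log2 fold change, the largest being -2.24 for COL7A1, and in each case it is the log2 ratio of the deposited FPKM.

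Promoter windows are shown for the 3 chains with the largest differences on the log2(FPKM + 1) scale, COL18A1, COL13A1 and COL5A1, where COL18A1 and COL5A1 have a further window that is not printed. Capitals mark matches on either strand to the GC box GGGCGG, to the CCAAT box, to the TATA box TATAAA, or to the AP-1 site with letters TGANTCA.
COL18A1, chr21:45404915-45405214, plus strand: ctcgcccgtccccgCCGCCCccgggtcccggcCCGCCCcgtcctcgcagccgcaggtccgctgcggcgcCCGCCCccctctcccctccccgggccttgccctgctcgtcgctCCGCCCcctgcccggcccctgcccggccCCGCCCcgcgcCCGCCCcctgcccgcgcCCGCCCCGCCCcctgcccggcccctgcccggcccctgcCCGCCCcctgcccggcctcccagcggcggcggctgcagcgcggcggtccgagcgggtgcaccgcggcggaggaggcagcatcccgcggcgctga
COL13A1, chr10:69801656-69801955, plus strand: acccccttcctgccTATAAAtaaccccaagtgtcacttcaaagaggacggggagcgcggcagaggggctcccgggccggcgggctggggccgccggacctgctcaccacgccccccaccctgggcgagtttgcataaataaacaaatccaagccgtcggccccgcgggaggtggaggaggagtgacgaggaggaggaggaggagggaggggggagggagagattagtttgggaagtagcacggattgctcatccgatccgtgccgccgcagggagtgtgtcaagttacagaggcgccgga
COL5A1, chr9:134641553-134641852, plus strand: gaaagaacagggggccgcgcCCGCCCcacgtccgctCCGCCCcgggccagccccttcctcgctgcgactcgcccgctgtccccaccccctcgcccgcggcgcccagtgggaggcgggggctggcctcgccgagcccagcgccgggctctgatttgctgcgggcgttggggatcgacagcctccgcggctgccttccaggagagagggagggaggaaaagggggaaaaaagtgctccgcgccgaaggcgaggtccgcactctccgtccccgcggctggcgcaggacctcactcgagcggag

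The printed COL18A1 window, with 86.7% G and C, holds 9 GC boxes, 2 of which overlap by 1 base, the COL5A1 window holds 2 and the COL13A1 window none. COL13A1 holds TATAAA at -236 to -231 from its start. Of the 32 chains with windows, 65.6% had a GC box in at least 1, beside 45% of all 35116 RefSeq windows. CCAAT was found in 37.5% of the chains and 34.6% of all windows, TATAAA in 21.9% and 11.5%, and TGANTCA in 3.12% and 7.71%. A chain with several windows has more chances of a match, so these shares are not on the same footing. Counted by window, 24 of the 44 collagen windows held a GC box, 14 CCAAT, 8 TATAAA and 1 TGANTCA. By that count CCAAT fell below its share of all windows. The 12 chains without a window include COL1A1, COL1A2, COL3A1 and COL5A2, the chains near their control level. COL6A1 and COL8A1, also without one, were 1.91-fold and 2.15-fold lower.

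Because several chains must be made together to fill 1 trimer, the ratio between partners was compared across the libraries, in FPKM and so per length. COL1A1 to COL1A2 stood at 2.11 in the control library (95% interval 1.82 to 2.44) and 2.23 in the D16 library (1.91 to 2.60). COL6A1 to COL6A2 stood at 2.43 (2.25 to 2.63) and 2.33 (2.10 to 2.59). The intervals of both pairs overlap between libraries. COL4A2 to COL4A1 stood at 2.26 (2.11 to 2.42) and 1.86 (1.71 to 2.04), a small shift beyond counting error. Reads from the overlap of these genes cannot be assigned to 1 gene, which the intervals do not cover. COL4A5 to COL4A6 stood at 11.8 and 15.3 and COL9A2 to COL9A3 at 31.7 and 14.9, with wide intervals that overlap between libraries. COL5A1 to COL5A2 stood at 23.5 (18.4 to 30.5) and 9.15 (7.0 to 12.2), and COL6A1 to COL6A3 at 10.5 (9.65 to 11.4) and 21.0 (18.1 to 24.5). These ratios do not depend on scaling between libraries, and their spread between cultures was not measured.

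**Figure D4:**
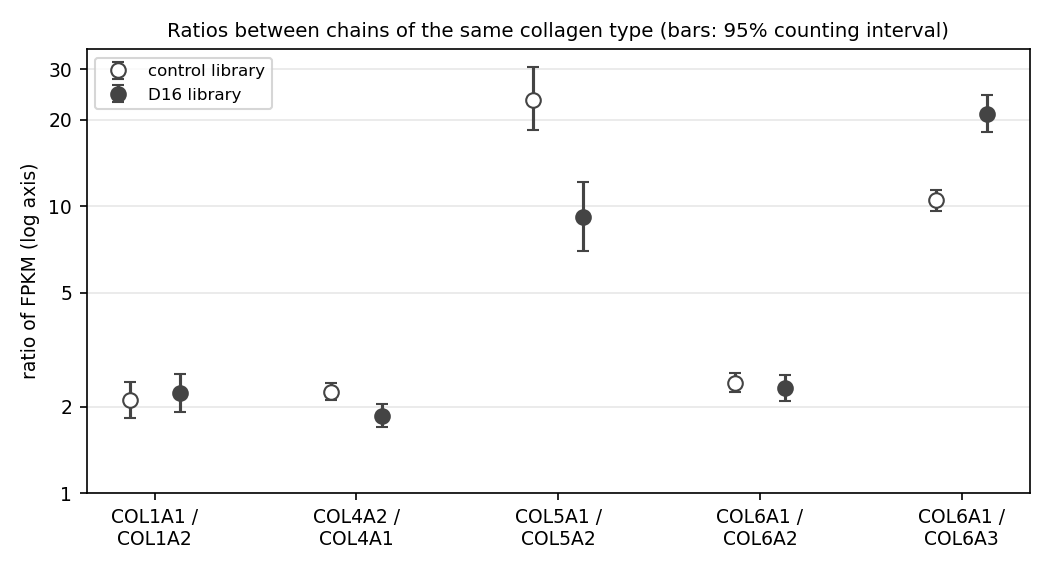
Ratio of FPKM between chains of the same collagen type in the control (open) and D16 (filled) libraries, on a log axis with 95% counting intervals. COL1A1 to COL1A2 and COL6A1 to COL6A2 overlap between libraries, COL5A1 to COL5A2 moves from 23.5 to 9.15, and COL6A1 to COL6A3 from 10.5 to 21.0.

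Genes that handle collagen differed by step. Their counts and medians are on the log2(FPKM + 1) scale with the same minimum of 1 FPKM as for the 14 chains. Enzymes and chaperones that hydroxylate and fold the chains in the endoplasmic reticulum had a median log2 difference of 0.05 over 16 measured of 19 genes, with 1 at least 2-fold lower and none higher, beside 3.97% and 3.63% of all genes tested. P4HA1, a catalytic subunit of prolyl 4-hydroxylase, stood at 30.6 and 61.6 FPKM, 2.01-fold higher by the ratio of FPKM and just inside the threshold on the log2 scale, and P3H2, which hydroxylates type IV chains, at 14.3 and 21.6 FPKM. TMEM38B, an ion channel needed for collagen folding, stood at 3.26 and 5.55 FPKM. P3H4, a partner of lysyl hydroxylase complexes, was the lower member at 2.65 and 0.689 FPKM, with COLGALT2 at 2.17 and 0.780 FPKM, 2.79-fold lower by the ratio alone, and CRTAP at 40.9 and 27.4 FPKM. The 14 genes of collagen export from the endoplasmic reticulum had a median of 0.14. Of them 1 was at least 2-fold lower and none higher, beside the same 3.97% and 3.63% of all genes tested. That gene, CREB3L2, a transcription factor for coat proteins of secretion, stood at 12.2 and 1.71 FPKM, 7.10-fold lower with a 95% interval of 6.31 to 7.98. The others named by the rule, SAR1B (2.75 and 4.76 FPKM), SEC23A (14.1 and 9.54), KLHL12 (10 and 14.1), SAR1A (18.5 and 25.8) and PREB (14.5 and 11.3), lay within 2-fold.

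Processing and cross-linking genes were lower, with 5 of 7 measured of 15 at least 2-fold lower and none higher, beside 3.97% and 3.63% of all genes tested, and a median of -1.36. The lysyl oxidases cross-link collagen outside the cell. LOXL4 stood at 52.9 and 8.80 FPKM (6.0-fold lower, 95% bounds 5.54 and 6.51), LOXL1 at 3.96 against 0.585 FPKM, LOX at 11.4 against 3.85 FPKM and LOXL2 at 58.0 against 23.8 FPKM. TGM2, a transglutaminase, stood at 70.9 and 21.3 FPKM, and PXDN, which forms the sulfilimine links of type IV, at 26.9 and 17.1 FPKM. Partners of type IV in basement membranes had 4 of 9 measured of 15 at least 2-fold lower and none higher, beside the same 3.97% and 3.63%, and a median of -0.97. Among them LAMA5, a laminin alpha chain, stood at 9.85 against 2.24 FPKM, LAMB1, a laminin beta chain, at 13.8 against 4.31 FPKM, and the proteoglycan AGRN at 22.2 against 9.30 FPKM. HSPG2, or perlecan, stood at 6.0 and 2.56 FPKM and LAMA3 at 5.90 and 2.64 FPKM, both past 2-fold by the ratio alone.

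Collagen receptors had 2 of 9 measured of 15 at least 2-fold lower and none higher, beside 3.97% and 3.63% of all genes tested, and a median of -0.45 on the log2(FPKM + 1) scale. CSPG4, which binds type VI, stood at 3.74 and 0.957 FPKM, and MRC2, an endocytic collagen receptor, at 5.94 and 2.07 FPKM. ITGA2, a collagen-binding integrin chain, stood at 11.7 and 6.85 FPKM while its partner ITGB1 stood at 171 and 221 FPKM. The anthrax toxin receptors ANTXR2 and ANTXR1, which bind matrix proteins, stood at 24.6 and 15.1 FPKM and at 11.7 and 8.27 FPKM. Collagen breakdown genes had a median of -0.02 over 8 measured of 15, with none at least 2-fold lower on that scale, beside 3.97%, and 1 higher, beside 3.63%. That gene, the lysosomal protease CTSL, stood at 54.3 and 136 FPKM. MMP1, the interstitial collagenase, stood at 326 and 396 FPKM, MMP14, a membrane-bound collagenase, at 129 and 79.9 FPKM, CTSK at 3.52 and 1.76 FPKM, which is 2-fold lower by the ratio, CTSB at 22.0 and 19.0 FPKM and PEPD, which recycles collagen proline, at 9.06 and 11.7 FPKM.

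**Figure D5:**
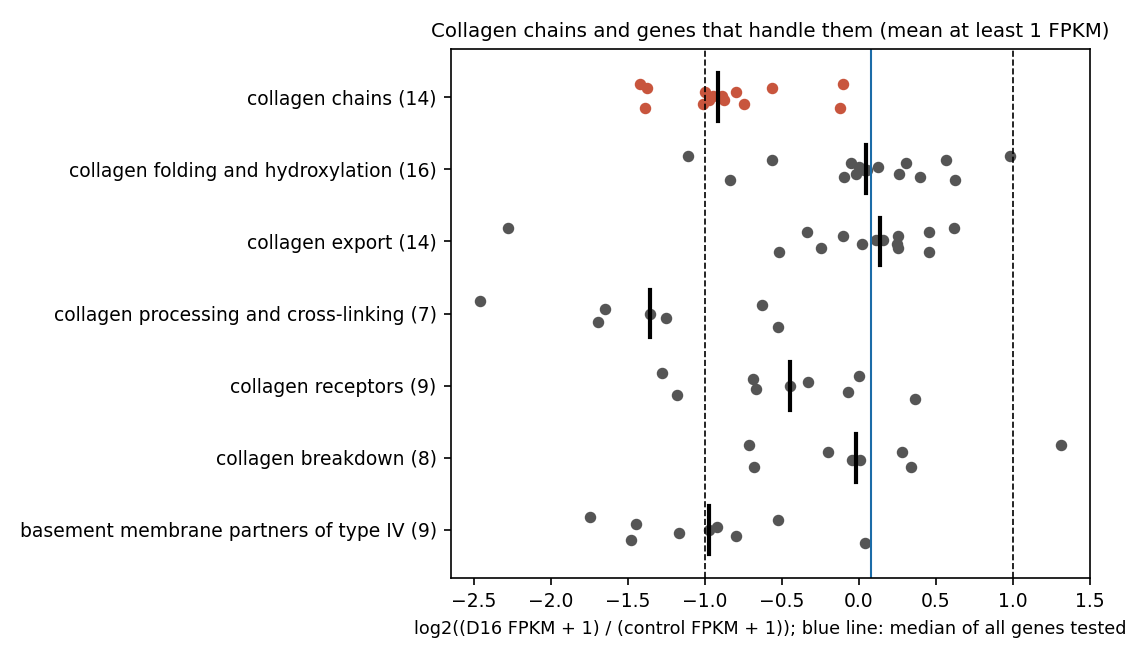
Log2((D16 FPKM + 1) / (control FPKM + 1)) of the collagen chains and of 6 lists of genes that handle or bind collagen, for members with a mean of 1 FPKM or more; the number of members stands after each name, black bars are medians, the blue line is the median of all genes tested and dashed lines mark 2-fold. Medians lie at -0.92 for the chains (COL1A1 alone moves above 0 after rescaling to equal sums), -1.36 for processing and cross-linking, -0.97 for basement membrane partners and within 0.14 of 0 for folding, export and breakdown.

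Collagen messages are long, and transcript length was set beside the result. All genes tested were divided into 5 equal bins by length, and of the 14 measured chains 10 fell in the longest, with transcripts of 5539 bases or more. All genes in that bin had a median of 0.03, beside 0.07 to 0.12 in the other bins, and 4.07% of them were at least 2-fold lower, beside 3.40% to 4.88%. Centred on the median of their own length bin, the chains had 5 members at least 2-fold lower, beside 4.89% of all genes. Of 10 genes that describe the line, 8 had a mean of 1 FPKM or more. PLAU, the urokinase gene, stood at 135 and 66.2 FPKM. Without centring it was the 1 gene of the list at least 2-fold lower, with none higher, beside 3.97% and 3.63% of all genes tested. VIM stood at 502 and 259 FPKM, MSN at 238 and 215, AXL at 196 and 192, CAV1 at 55.1 and 73.7, EGFR at 25.9 and 20.5, CD44 at 25.6 in both libraries and ERBB2 at 5.38 and 5.72. PGR was at 0 and ESR1 at 0.0192 and 0.00935 FPKM.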

How the data were processed

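RNA of 1 control and 1 D16-treated culture was sequenced. Cutadapt 1.9, StringTie 1.3.4d and HISAT2 2.0.4 appear in the submitters' processing notes, which give neither their roles nor an order, and the build used for alignment is not given there. The FPKM values were deposited by the authors, who list absent genes at 0.0001, read here as 0. The deposited estimated counts are whole numbers that pile up at multiples of 4 (in the control library 1308 genes have 4 counts, against 473 with 3 and 254 with 5). Therefore 1 read pair was set to 4 counts, a reading made from the values. Of 13018 genes that reached 100 counts in both libraries, 98.4% had the same D16 to control ratio in counts and FPKM within 1% after a common factor of 0.962. The authors' log2 fold changes come from a deposited table of terms. Another 8 per-sample columns, in a deposited list of top genes, stayed out.

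Differences were log2((D16 FPKM + 1) / (control FPKM + 1)), counted at 2-fold among genes with a mean of 1 FPKM or more. Folds are ratios of FPKM. Their intervals are Clopper-Pearson bounds of the D16 share of read pairs, expressed as a ratio and scaled by 0.962. They and the floor of 3 read pairs take in counting error alone, since reads are not independent molecules. Every chain with a mean of 0.1 FPKM or more was named, and up to 6 members with the largest difference from each other list. COL4A3, COL4A4 and COL4A6 are given with values beyond this rule, and single markers were named after their values were seen. Values of some list members are not reported here. The members and lists were chosen with earlier results of these data known. Transcript length was that of the longest transcript in GENCODE release 29, found for 99.6% of genes tested. Alternatives covered pseudocounts, filters, thresholds and scaling, including edgeR's TMM on rounded counts. The steps were tested on simulated data. Python 3.11.15, numpy 2.4.6, pandas 2.3.3, scipy 1.17.1, matplotlib 3.10.9, R 4.3.3 and edgeR 4.0.16 were used.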

Additional observations from a re-analysis of the deposited data

How the results depend on the processing

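No setting tried put a collagen chain at least 2-fold higher in the D16 library. The number at least 2-fold lower, 5 of 14 as reported, was 8 with a pseudocount of 0.1 FPKM (7.16% of all genes), 1 with 5 FPKM (1.17%), 3 of the 8 chains with a mean of 5 FPKM or more (3.59%), 3 after rescaling to equal sums of FPKM (2.89%), 9 after centring on genes with a mean of 5 FPKM or more (5.71%) and 8 with counts scaled by TMM (6.27%). It was 11 at 1.5-fold (11% of all genes), 0 at 3-fold (1.18%), and 12 of 20 by the ratio without a pseudocount at a mean of 0.1 FPKM or more (15.6%), a setting chosen after the data were seen. The TMM differences were taken on scaled counts, not FPKM, so the pseudocount weighed differently there. TMM itself hardly moved the ratios, with COL9A2 at 22.8% of control as deposited and 22.7% with TMM, and COL4A2 at 48.4% and 47.8%. The median of -0.92 became -1.06, -0.51, -0.77, -1.06 and -1.08 under the 2 pseudocounts, equal sums, centring and TMM, -0.77 at a mean of 0.1 FPKM or more, -0.10 with no filter, over 38 chains of which 18 lie below 0.1 FPKM, and -1.20 by the ratio. COL1A1 turned from -0.10 to 0.0283 after rescaling to equal sums, which were 336554 FPKM in the control library and 296616 with D16 before it. A further rescaling used sums that omit mitochondrial genes and the 20 genes of highest level. There COL1A1 stood at -0.15, and 6 of the 14 chains were at least 2-fold lower (4.66% of all genes), with a collagen median of -0.96. The cause of the unequal sums was not tested. No paired analysis was possible because each group holds 1 library, and for the same reason no replicate could be left out. No chain overlaps an expressed gene on its own strand, so leaving such genes out removed none.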

Other observations

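Of 9 collagen-named loci outside the rule, which are antisense RNAs, a divergent transcript and pseudogenes, 7 were listed at 0 in both libraries. COL6A4P2, a type VI pseudogene listed as unitary, had 3 read pairs in the control library and 0 in the D16 library. COL18A1-AS1, which lies opposite COL18A1, had 0 and 2 read pairs. All of these counts are at or under 3 read pairs, so no direction is given.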
